A study of Homo sapiens with 6 samples.

Results

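The SLC25 carriers are proteins mostly of the inner mitochondrial membrane that move metabolites, nucleotides, cofactors and ions between the cytosol and the mitochondrial matrix. Most are built from a repeated module of membrane helices and work by exchanging one cargo for another, so the family links glycolysis, fatty acid synthesis, amino acid breakdown and oxidative phosphorylation across a membrane that is otherwise nearly impermeable. The family members with an assigned cargo fall into groups with a shared substrate, and several groups hold paralogs that carry the same cargo under different regulation or in different tissues.

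Members were taken by symbol: every row named SLC25A followed by a number, without rows described as pseudogenes. This gave 48 members among 50868 rows, of which 42 passed the filter on low counts and were tested among 16536 genes. RNA of DU145, a human prostate cancer cell line, was sequenced in 3 libraries titled siCtrl and 3 titled siRCC2. The genotype labels call them RCC2 wild type and RCC2 knockdown; RCC2 is a chromosome condensation regulator of the RCC1 repeat family, and the title of the series places it in proliferation, migration and Hedgehog signalling. No source used here gives the sequence, dose or duration of the siRNA. Nothing in the labels says that the libraries were separate cultures, so each p-value reflects the spread of these 6 libraries, part or all of which may be technical. In bulk RNA, fewer cells of a kind and less RNA per cell cannot be told apart.

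The targeted gene was checked first. RCC2 had 3998, 3598 and 3702 counts in the siCtrl libraries against 980, 1117 and 1045 after siRCC2, which is -1.76 ± 0.07 on the log2 scale (± SE throughout for fold changes; edgeR adjusted p = 2.00e-05). Total counts ran from 17377191 to 19895431 per library. Of 6 epithelial markers all were detected, with KRT8 at 8479 to 14018 counts. In siRCC2, 3 of the 6 were higher and 2 lower, where 20.7% and 21.1% of all tested genes were. Markers of other cell types were mixed: PTPRC, CD3E and LUM had at most 1 count, but the leukocyte gene CD14 had 36 to 77. Of the fibroblast list, COL1A1 had 129 to 256 counts and was lower in siRCC2, COL1A2 had 21 to 39, and COL3A1 had 5 to 21 and was higher; the 4 endothelial markers had at most 13 counts. Their part in the results below was not tested. Among the siRCC2 libraries, replicates 1 and 3 differed most (chi-square per degree of freedom 35.2, against 10.4 to 10.7 within siCtrl).

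SLC25 genes moved in both directions after RCC2 siRNA, and about as often as other genes. At an adjusted p under 0.05 (edgeR quasi-likelihood F-test, Benjamini-Hochberg over all tested genes), 15 of 42 tested carriers (35.7%) differed between the groups, against 41.8% of all tested genes. Of these, 7 were higher in siRCC2 (16.7%, against 20.7% of all genes) and 8 were lower (19.0%, against 21.1%). The median log2 fold change over tested carriers was 0.00, beside -0.02 over all tested genes. For 24 carriers (57.1%) no siRCC2 library overlapped the siCtrl libraries, against 55.4% of all tested genes. Changes of at least 2-fold past the threshold were found in 3 carriers (7.14%, against 12.1% of all tested genes). These shares are close to or below the background, so the counts say nothing particular about the family. The results below are about single members. The tested members were those with enough reads, and SLC25A2, SLC25A18, SLC25A31, SLC25A47, SLC25A48 and SLC25A52 were not tested, with at most 9 counts in any library.

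**Figure D1:**
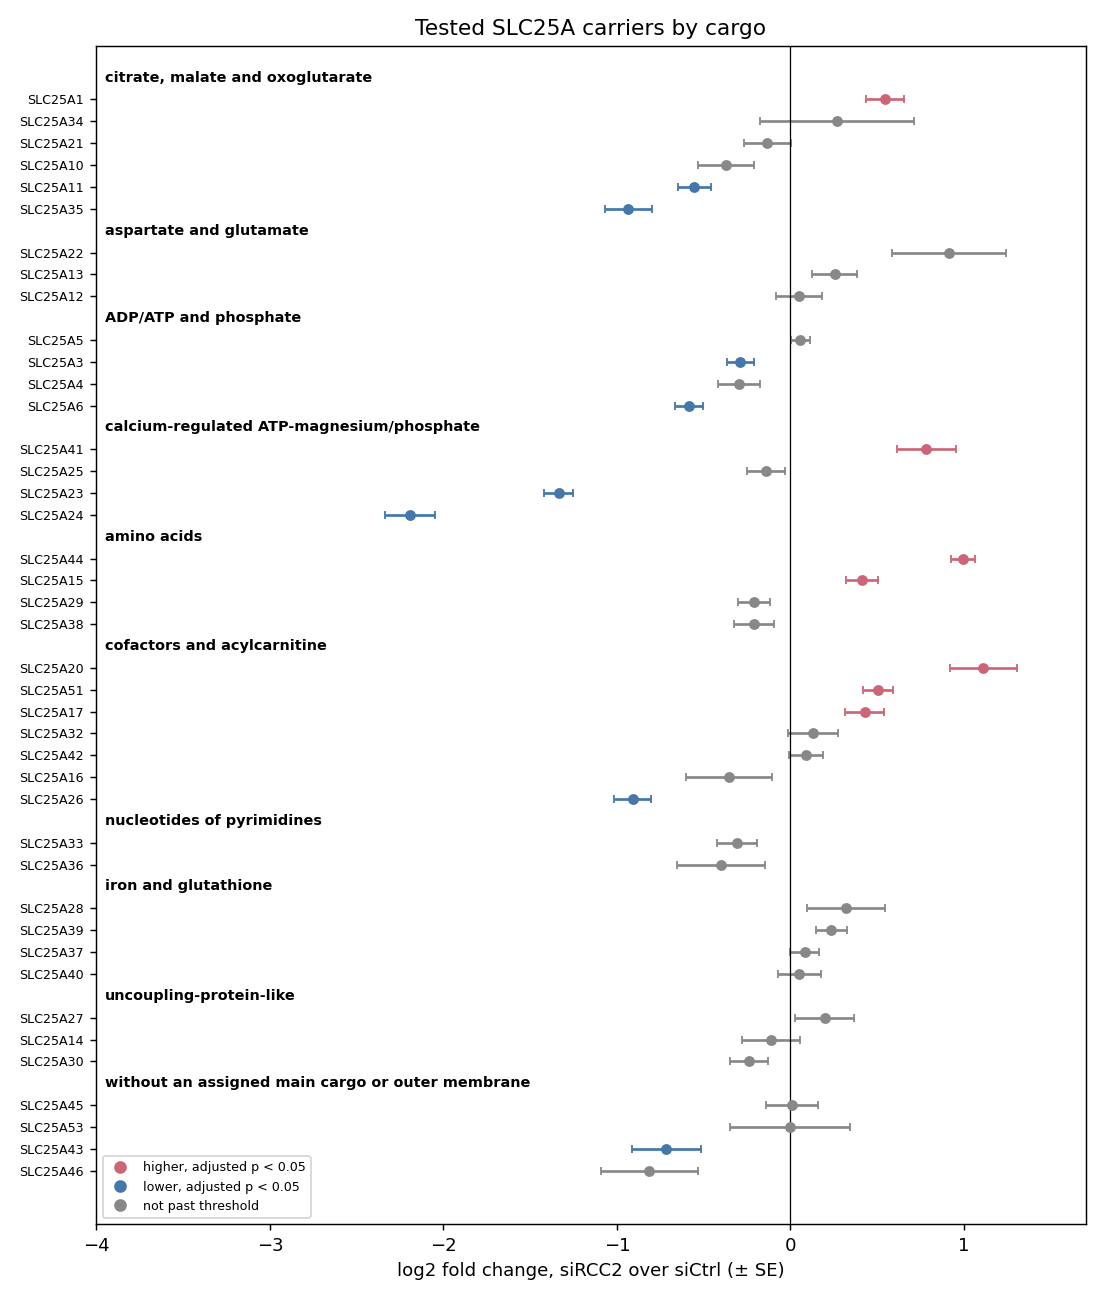
Log2 fold change, siRCC2 over siCtrl, with its standard error for 41 of the 42 tested carriers, grouped by cargo; red and blue points passed the threshold as higher and lower. The values run from -2.19 for SLC25A24 to 1.11 for SLC25A20, and most groups hold members on both sides of 0.

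The largest changes lay in the ATP-magnesium/phosphate carriers, which exchange ATP-magnesium for phosphate, change the adenine nucleotide content of the matrix, and, in the longer members, are switched on by calcium through EF-hand domains facing the intermembrane space. SLC25A24 (ENSG00000085491, GRCh38 chromosome 1, 108134036 to 108200849, minus strand) had 980, 728 and 908 counts in the siCtrl libraries, always given in replicate order, against 137, 194 and 212 after siRCC2. All siRCC2 libraries lay far below all siCtrl libraries. In CPM, which are TMM-scaled counts relative to library size, the level fell from 44.9 ± 4.98 to 9.80 ± 1.43 (SD, n = 3 each). The log2 fold change was -2.19 ± 0.15, a 4.57-fold fall (edgeR adjusted p = 9.00e-05). SLC25A23 (chromosome 19, 6436079 to 6465203, minus strand) had 160, 156 and 154 CPM in siCtrl and 68.3, 61.3 and 56.5 CPM in siRCC2, again with no overlap. Its log2 fold change was -1.34 ± 0.09 (edgeR adjusted p = 8.38e-05).

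The other 2 members of this group did not follow. SLC25A41, a short member that lacks the calcium-binding domain, had 42, 46 and 41 counts in siCtrl and 70, 71 and 69 in siRCC2, and rose by a log2 fold change of 0.78 ± 0.17 (edgeR adjusted p = 0.00910). Its call was lost in 1 alternative, DESeq2 with a replicate block (adjusted p = 0.110). SLC25A25 had 34.1, 35.4 and 28.1 CPM in siCtrl and 29.4, 30.5 and 28.7 CPM in siRCC2, with a log2 fold change of -0.14 ± 0.11 that did not pass the threshold (edgeR adjusted p = 0.348), and the groups overlapped. SLC25A25 has an antisense partner over 13.5% of its exon bases, SLC25A25-AS1, with up to 350 counts, and no source used here says whether counting used strand.

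Within each library the ratio of one carrier to another shows the difference without scaling. The log2 ratio of SLC25A24 to SLC25A25 was 0.47 ± 0.29 in siCtrl and -1.60 ± 0.23 in siRCC2 (SD, n = 3 each; exact two-sided permutation p = 0.10, the smallest that 3 against 3 can give). The log2 ratio of SLC25A23 to SLC25A41 was 6.12 ± 0.15 in siCtrl and changed by -2.12. Ratios were formed for 80 pairs of carriers within cargo groups, and 46 did not overlap between the groups of libraries, where 55.4% of single tested genes did not; the share for other gene pairs was not computed, and the Benjamini-Hochberg adjusted p of those pairs is 0.174, so this design cannot separate any of them at 0.05. Per kilobase of transcript, the summed level of the 4 genes went from 67.0 ± 1.93 to 31.4 ± 1.69 CPM per kb, a difference of -1.10 on the log2 scale (exact permutation p = 0.10). SLC25A23 held 68.2% of that sum in siCtrl and 57.6% in siRCC2, and SLC25A24 15.7% and 7.36%. Such sums were formed for 14 sets of carriers, and most did not overlap between the groups of libraries. The Benjamini-Hochberg adjusted p of those sums is 0.14, so this design cannot separate any of them at 0.05.

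**Figure D2:**
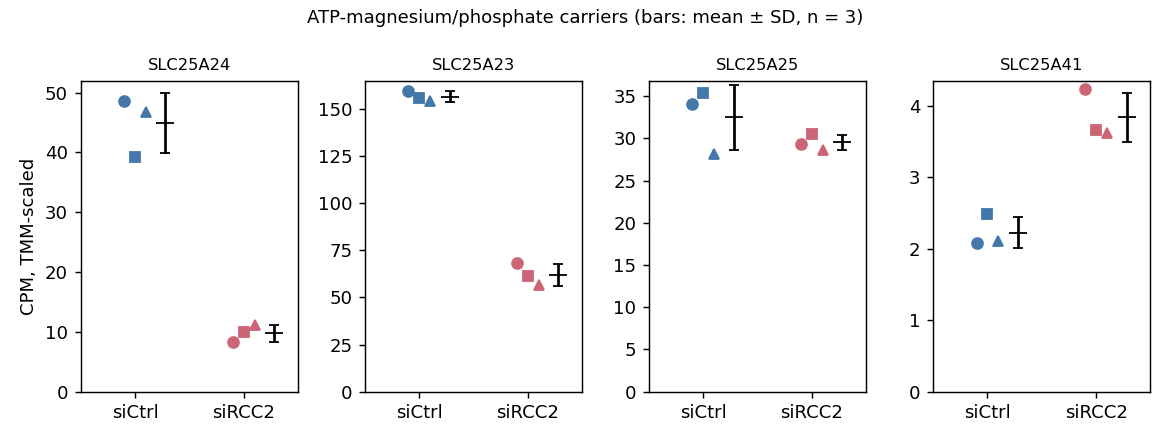
TMM-scaled CPM of the 4 ATP-magnesium/phosphate carriers in each library (circle, square and triangle are replicates 1, 2 and 3), with mean ± SD at the right of each group. SLC25A24 and SLC25A23 are lower in all 3 siRCC2 libraries, SLC25A25 overlaps, and SLC25A41 is higher.

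The 6-base word TCTGGA, taken up because an earlier examination of these data had found it in 3′ UTRs of genes that were lower in siRCC2, was searched in the members' 3′ UTRs on the transcript strand. Both carriers that fell most hold 2 copies, but so do SLC25A27 and SLC25A46, and SLC25A4 and SLC25A53 hold 3, none of which passed the threshold. SLC25A46 (-0.81, edgeR adjusted p = 0.0508) and SLC25A4 (-0.30, edgeR adjusted p = 0.0923) still lay lower in every siRCC2 library. SLC25A27 stood at 0.20 and SLC25A53 at -0.0036. The following 30-base stretches are in 5′ to 3′ order, from GENCODE 29 on GRCh38, with the word in capitals, and show SLC25A24 and SLC25A23 beside SLC25A20, which rose and also holds the word.
SLC25A24 first site, chr1:108136589-108136618, minus strand: ctttcaacaatcTCTGGAgtgactttttct
SLC25A24 second site, chr1:108135008-108135037, minus strand: aaatttcaaactTCTGGAaaatatgaaaat
SLC25A23 first site, chr19:6441322-6441351, minus strand: cagctgctggatTCTGGAtgtcaacaaacc
SLC25A23 second site, chr19:6440214-6440243, minus strand: agcttaggatcaTCTGGAgaccccatggag
SLC25A20, chr3:48857668-48857697, minus strand: ctcaagttcactTCTGGAtgctggaagctg
Of tested genes whose 3′ UTR reached 100 bases, 40.6% hold the word, and 30.7% of those were called lower, against 18.9% of those without it. The word was chosen from these same data, so that difference is not separate support for it. Over all those genes the median 3′ UTR was 2245 bases with the word and 694 without it. Among the carriers 22 of 41 hold it (53.7%), of which 3 were lower and 2 higher, and of the 19 without it 5 were lower and 4 higher. That is 13.6% lower with the word and 26.3% without it. Carriers with the word had longer 3′ UTRs, with a median of 1590 bases against 555. What part the word or the length plays was not tested.

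ADP/ATP carriers exchange cytosolic ADP for matrix ATP, and the phosphate carrier SLC25A3 imports the phosphate used to make that ATP. These were the most abundant carriers in siCtrl per kilobase, with SLC25A6 at 556 ± 29.8, SLC25A3 at 310.1 ± 5.27 and SLC25A5 at 278 ± 2.00 CPM per kb. SLC25A6 (ENSG00000169100, chromosome X, 1386152 to 1392724, in the pseudoautosomal region) had 1214, 1128 and 1095 CPM in siCtrl and 834, 761 and 697 CPM in siRCC2. The groups did not overlap, and the level fell from 1146 ± 61.5 to 764 ± 68.7 CPM, or by -0.58 ± 0.08 in log2 (edgeR adjusted p = 0.00159). SLC25A5 had 352, 357 and 354 CPM in siCtrl and 359, 375 and 371 CPM in siRCC2, a log2 fold change of 0.06 ± 0.05 that did not pass (edgeR adjusted p = 0.434) and was -0.01 when libraries were scaled by total count alone. SLC25A4, the heart and muscle member, was low and stood at -0.30 ± 0.12 (edgeR adjusted p = 0.0923; 0.0497 without siRCC2 replicate 3).

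The makeup of the ADP/ATP carrier message differed between the groups without overlap. Per kilobase, SLC25A6 made up 66.4% ± 1.29 of the ADP/ATP carrier total in siCtrl and 55.9% ± 2.65 in siRCC2, and SLC25A5 33.2% ± 1.28 and 43.7% ± 2.59 (SD, n = 3 each). The log2 ratio of SLC25A5 to SLC25A6 moved by 0.64, from -1.69 ± 0.08 to -1.05 ± 0.15 (exact permutation p = 0.10). The total itself went from 837 ± 28.5 to 662 ± 28.6 CPM per kb, without overlap (exact permutation p = 0.10). Its Benjamini-Hochberg adjusted p over the 14 sums was 0.14. SLC25A3 had 519, 530 and 512 CPM in siCtrl and 465, 427 and 386 CPM in siRCC2, and fell by 0.29 ± 0.08 on the log2 scale (edgeR adjusted p = 0.0230). That call was lost with DESeq2 (adjusted p = 0.0620), with DESeq2 and a replicate block (0.0749), and without siCtrl replicate 1 (0.0692), 2 (0.0764) or 3 (0.0627) or siRCC2 replicate 2 (0.140). SLC25A31, the testis ADP/ATP carrier, had 0 counts in all libraries.

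**Figure D3:**
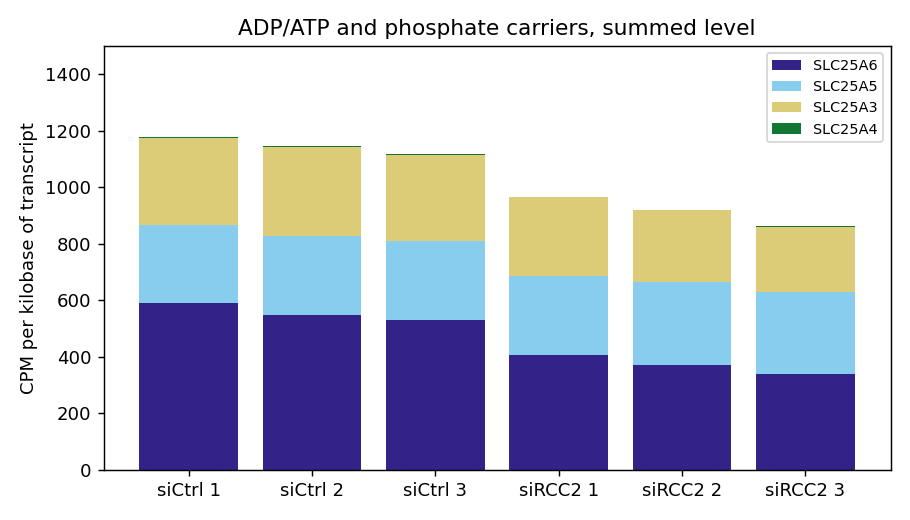
Summed level in CPM per kilobase of the ADP/ATP carriers SLC25A6, SLC25A5 and SLC25A4 and the phosphate carrier SLC25A3 in each library, stacked from 0. The SLC25A6 segment is shorter in all 3 siRCC2 libraries, while the SLC25A5 segment is about the same height.

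Carriers of citrate, malate and oxoglutarate feed fatty acid synthesis and the malate-aspartate shuttle. The citrate carrier SLC25A1 exports citrate to the cytosol, and its libraries stood at 123, 98.1 and 118 CPM in siCtrl and 177, 150 and 168 CPM in siRCC2, all siRCC2 values being above all siCtrl values. It rose by 0.54 ± 0.11 on the log2 scale (edgeR adjusted p = 0.00667). The oxoglutarate/malate carrier SLC25A11 went the other way, from 62.4, 61.3 and 58.8 CPM to 45.1, 42.4 and 36.8 CPM, a log2 fold change of -0.55 ± 0.10 (edgeR adjusted p = 0.00377). The log2 ratio of SLC25A1 to SLC25A11 rose from 0.89 ± 0.18 to 1.99 ± 0.18, with no overlap (exact permutation p = 0.10). SLC25A35 was listed with this group, though its cargo is poorly known. It fell from 17.2 ± 0.941 to 9.01 ± 1.26 CPM, or by -0.94 ± 0.14 in log2 (edgeR adjusted p = 0.00173).

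Overlapping genes limit part of this. SLC25A35 shares 33.2% of its exon bases with RANGRF on the opposite strand, whose log2 fold change was -0.26 and not past the threshold (edgeR adjusted p = 0.0806). SLC25A11 shares 9.10% with RNF167, also on the opposite strand. RNF167 had 1957 to 2673 counts and stood at 0.33, not past the threshold (edgeR adjusted p = 0.0716). The dicarboxylate carrier SLC25A10 was at -0.37 ± 0.16 (edgeR adjusted p = 0.102) and the oxodicarboxylate carrier SLC25A21 at -0.13 ± 0.13 (edgeR adjusted p = 0.462), neither past the threshold. SLC25A10 shares 63.9% of its 50-base stretches with AC139530.2, which had 0 counts. It was past the threshold without siRCC2 replicate 1 (-0.56, adjusted p = 0.00875).

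Among the aspartate and glutamate carriers, SLC25A12 and SLC25A13 supply the aspartate arm of the malate-aspartate shuttle. Of the group, 0 of 3 tested members passed with edgeR (41.8% of all tested genes did). At an unadjusted p under 0.05 the count was 1, SLC25A22, and DESeq2 and limma-voom each called 1. SLC25A22, a glutamate carrier, had 754, 262 and 685 counts in siCtrl and 978, 1021 and 993 in siRCC2, so every siRCC2 library was above every siCtrl library. Its log2 fold change of 0.91 ± 0.33 missed the threshold (edgeR adjusted p = 0.0598). The low siCtrl replicate 2 widened the spread: without it the value was 0.58 with an adjusted p of 0.0114. The calcium-regulated carriers SLC25A12 and SLC25A13 stood at 0.05 ± 0.13 and 0.26 ± 0.13 (edgeR adjusted p = 0.795 and 0.157).

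Among carriers past the threshold, the second largest rise was in an amino acid carrier. SLC25A44, which imports branched-chain amino acids into mitochondria, had 70.3, 66.7 and 71.6 CPM in siCtrl and 145, 134 and 138 CPM in siRCC2. The libraries of each group lay close together and the groups were far apart. Its mean rose from 69.5 ± 2.52 to 139 ± 5.45 CPM, or by 1.00 ± 0.07 in log2 (edgeR adjusted p = 1.00e-04). SLC25A15, the ornithine carrier of the urea cycle, had 401, 368 and 393 counts in siCtrl and 470, 505 and 483 in siRCC2 and rose by 0.41 ± 0.09 (edgeR adjusted p = 0.0110; 0.0519 with DESeq2 and a replicate block). The basic amino acid carrier SLC25A29 and the glycine carrier SLC25A38 both stood at -0.21 (± 0.09 and ± 0.11) and did not pass, though SLC25A29 did with total count alone (-0.28, edgeR adjusted p = 0.0421). SLC25A44 made up 29.5% of the amino acid carrier level per kilobase in siCtrl and 45.9% in siRCC2.

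Carriers of cofactors and acylcarnitine held 3 rises and 1 fall among 8 tested members, where 20.7% and 21.1% of all tested genes were higher and lower. SLC25A20, which carries acylcarnitines into the matrix for fatty acid oxidation, had 130, 114 and 139 counts in siCtrl and 271, 203 and 303 in siRCC2. siRCC2 replicate 2 was the lowest of its group but still above all siCtrl libraries. Its mean rose from 6.59 ± 0.522 to 14.2 ± 3.29 CPM, or by 1.11 ± 0.19 in log2 (edgeR adjusted p = 0.00382). SLC25A51, the mitochondrial NAD carrier, had 510, 494 and 543 counts in siCtrl and 605, 730 and 750 in siRCC2, and rose by 0.51 ± 0.09 (edgeR adjusted p = 0.00357). Its transcript shares 21.1% of its 50-base stretches with the near-copy SLC25A52, which had at most 1 count.

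SLC25A26, which imports S-adenosylmethionine for methylation of mitochondrial RNA and protein, had 484, 486 and 477 counts in siCtrl and 212, 282 and 237 in siRCC2, with no overlap. It fell by 0.91 ± 0.11 on the log2 scale (edgeR adjusted p = 0.000725). SLC25A26 shares 15.5% of its exon bases with LRIG1 on the opposite strand, which had 475 to 678 counts. LRIG1 was also lower (log2 fold change -0.26, edgeR adjusted p = 0.0471), and its part in the SLC25A26 value was not tested. SLC25A17, a peroxisomal carrier of coenzyme A and related cofactors, rose from 25.3 ± 1.67 to 34.0 ± 3.74 CPM, by 0.43 ± 0.11 (edgeR adjusted p = 0.0202). Its call was lost without siCtrl replicate 1 (adjusted p = 0.0568), 2 (0.0773) or 3 (0.0502) or siRCC2 replicate 2 (0.0588). The folate or FAD carrier SLC25A32 was at 0.13 ± 0.14 and did not pass the threshold; 87.9% of its 50-base stretches also occur in AC012213.5, which was not analysed here, so its value is uncertain. SLC25A16 stood at -0.35 ± 0.25 (edgeR adjusted p = 0.292) and passed without siRCC2 replicate 3 (-0.64, adjusted p = 0.0405).

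**Figure D4:**
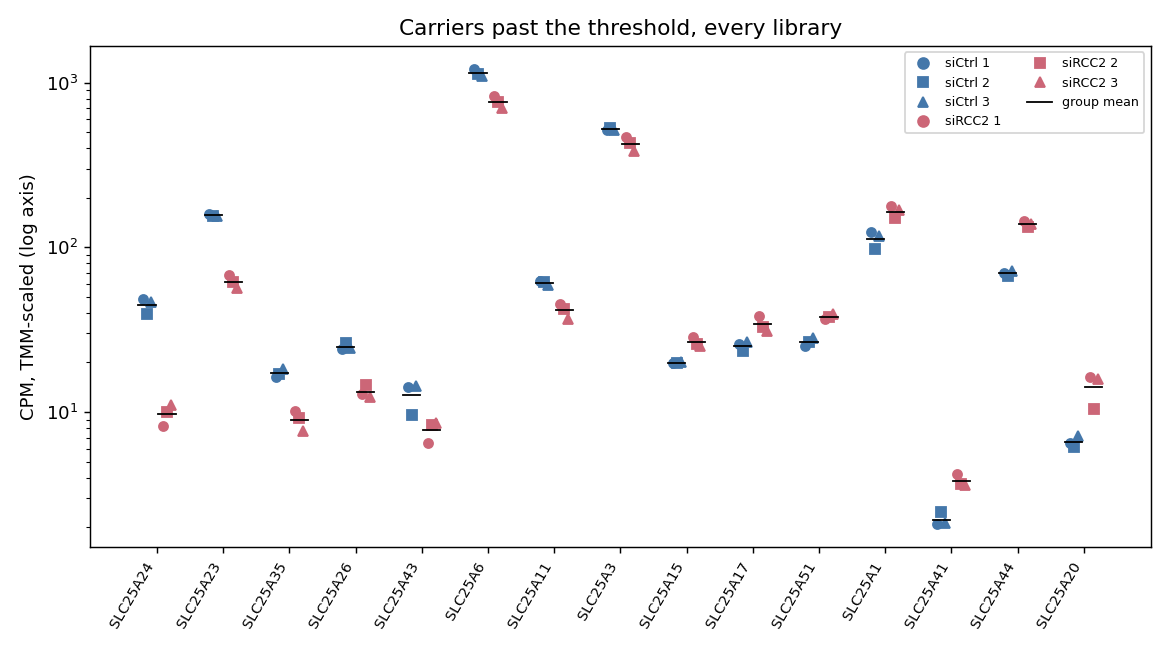
TMM-scaled CPM on a log axis for the 15 carriers past the threshold, ordered from the largest fall to the largest rise, with every library shown (circle, square and triangle are replicates 1, 2 and 3) and bars at the group means. In each of the 15 the siRCC2 libraries lie on one side of all siCtrl libraries.

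Of the carriers of iron and glutathione, pyrimidine nucleotides and of the uncoupling-protein-like members, 0 of 9 passed with edgeR (41.8% of all tested genes did). Of these 9, 2 had an unadjusted p under 0.05 (SLC25A33 and SLC25A39), and DESeq2 and limma-voom called 0. SLC25A33 passed when libraries were scaled by total count alone (-0.38, edgeR adjusted p = 0.0388). The glutathione carrier SLC25A39 had 205, 192 and 171 CPM in siCtrl and 239, 207 and 223 CPM in siRCC2, at 0.23 ± 0.09 (edgeR adjusted p = 0.0723). Of the mitoferrins, which import iron, SLC25A37 was at 0.08 ± 0.09 and SLC25A28 at 0.32 ± 0.22. The pyrimidine nucleotide carrier SLC25A36 had 1378, 1294 and 1593 counts in siCtrl and 586, 1055 and 1469 in siRCC2, so siRCC2 replicate 1 was low and replicate 3 lay inside the siCtrl range. It stood at -0.40 ± 0.26 (edgeR adjusted p = 0.249), and at -0.70 without siRCC2 replicate 3 (adjusted p = 0.0303). SLC25A33, its partner, was at -0.31 ± 0.12 (edgeR adjusted p = 0.0679). The SLC25A33 transcript shares 20.7% of its 50-base stretches with other genes, most of them with a gene of up to 81 counts.

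Among the members without an assigned main cargo, SLC25A43 had 14.3, 9.59 and 14.4 CPM in siCtrl and 6.47, 8.30 and 8.55 CPM in siRCC2. It fell by 0.71 ± 0.20 on the log2 scale (edgeR adjusted p = 0.0249), a call lost without siCtrl replicate 1 (adjusted p = 0.0851) or 3 (0.0856) or siRCC2 replicate 2 (0.0531). SLC25A46, an outer membrane protein of mitochondrial shape and lipid handling, had 442, 482 and 451 counts in siCtrl and 132, 267 and 356 in siRCC2. Every siRCC2 library was lower, replicate 1 most, and the log2 fold change of -0.81 ± 0.28 just missed the threshold (edgeR adjusted p = 0.0508) but passed in 10 of 15 alternatives. It was -0.56 without siRCC2 replicate 1 (adjusted p = 0.0230) and -1.12 without siRCC2 replicate 3 (0.0128).

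Of each RefSeq promoter (GRCh38.p14), only the 250 bases before the start were searched. Promoters were matched for 40 members, with 50 promoters. The word CCAAT, bound by NF-Y, occurred on either strand in 42.0% of them, against 32.0% of all promoters, and the NRF1 word GCGCATGC in 0, against 2.63%. Of the other words searched on both strands, CCGGAAGT (GABP) stood in 4 of 50 member promoters (8.0%, against 3.42% of all promoters). TCACNCCA (SREBP) also stood in 4 (8.0%, against 3.20%). AAGATGGC (YY1) and AAGGTCA (ERR alpha) each stood in 1 (2.0%, against 1.36% and 3.44%). CCAAT stood in promoters of SLC25A1, SLC25A17 and SLC25A44, which rose, and of SLC25A3, SLC25A6 and SLC25A23, which fell. The other members with it did not pass the threshold. These 60-base windows show those that rose and, of those that fell, SLC25A23. They are written on the gene's strand with the word or its reverse complement in capitals.
SLC25A44, chr1:156193854-156193913, plus strand: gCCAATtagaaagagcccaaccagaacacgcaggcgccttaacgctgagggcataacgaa
SLC25A17, chr22:40819422-40819481, minus strand: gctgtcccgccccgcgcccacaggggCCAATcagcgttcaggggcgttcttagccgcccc
SLC25A1, chr22:19178888-19178947, minus strand: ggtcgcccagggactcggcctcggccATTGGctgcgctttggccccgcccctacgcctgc
SLC25A23, chr19:6459815-6459874, minus strand: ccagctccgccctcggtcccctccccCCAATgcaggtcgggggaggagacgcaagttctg
A match is a description of the sequence and does not show binding.

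Members of the family known by other symbols, and the machinery around the carriers, were counted in the same fit. The uncoupling protein UCP2, which exports dicarboxylates such as malate, rose most, with 461, 422 and 482 counts in siCtrl and 1069, 1078 and 969 in siRCC2 (log2 fold change 1.28 ± 0.11, edgeR adjusted p = 0.000240). With it, UCP3 (0.68) and the outer membrane insertases MTCH1 (0.37) and MTCH2 (0.47) were higher. That is 4 of 4 tested (20.7% of all tested genes were higher), a count that was 2 without siRCC2 replicate 2. UCP3 rested on few reads, with 21, 22 and 22 counts in siCtrl and 26, 41 and 32 in siRCC2 (edgeR adjusted p = 0.0418).

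Carriers enter the inner membrane through the TOM complex, the small TIM chaperones and the TIM22 complex. Of 13 genes of that route, 7 were higher and 3 lower (20.7% and 21.1% of all tested genes were), with TOMM22 at 1.11 ± 0.09 (edgeR adjusted p = 0.000173), TIMM8A at 0.50, TIMM9 at -0.72 and TOMM40 at -0.36. The number called higher was 4 without siCtrl replicate 1, 2 without siCtrl replicate 2 or 3, and 3 without siRCC2 replicate 2, and the number called lower was 5 without siRCC2 replicate 1. Among 21 other transport genes of the mitochondrial membranes, 5 were higher and 7 lower, beside the same 20.7% and 21.1% of all tested genes. The pyruvate carrier subunit MPC2 stood at 0.90, the calcium uniporter regulator MICU2 at -1.73, the sideroflexin SFXN2 at -0.94 and the ion exchanger LETM1 at -0.50. The higher count was 3 without siCtrl replicate 1, 2 or 3 or siRCC2 replicate 2, and the lower count was 4 without siCtrl replicate 1 or 2 or siRCC2 replicate 2.

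Of 20 enzymes that use the shuttled metabolites, 8 were higher and 9 lower, where 20.7% and 21.1% of all tested genes were. Cytosolic malic enzyme ME1 (0.95) and cytosolic malate dehydrogenase MDH1 (0.48) were higher, and mitochondrial glycerol-3-phosphate dehydrogenase GPD2 (-1.05) and the cytosolic aconitase ACO1 (-0.85) were lower. Among regulators of mitochondrial biogenesis 2 of 11 were higher, near the 20.7% of all tested genes: PPRC1 (0.43) and the nuclear receptor ESRRA (0.57), a count that was 1 without siCtrl replicate 1 or 3, and 0 were lower with edgeR (0 at an unadjusted p under 0.05, 0 by DESeq2 and 0 by limma-voom), or 1 without siRCC2 replicate 1. NRF1 was at -0.17 and YY1 at -0.15, neither past the threshold, and the coactivator PPARGC1A had 0 counts in all libraries.

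**Figure D5:**
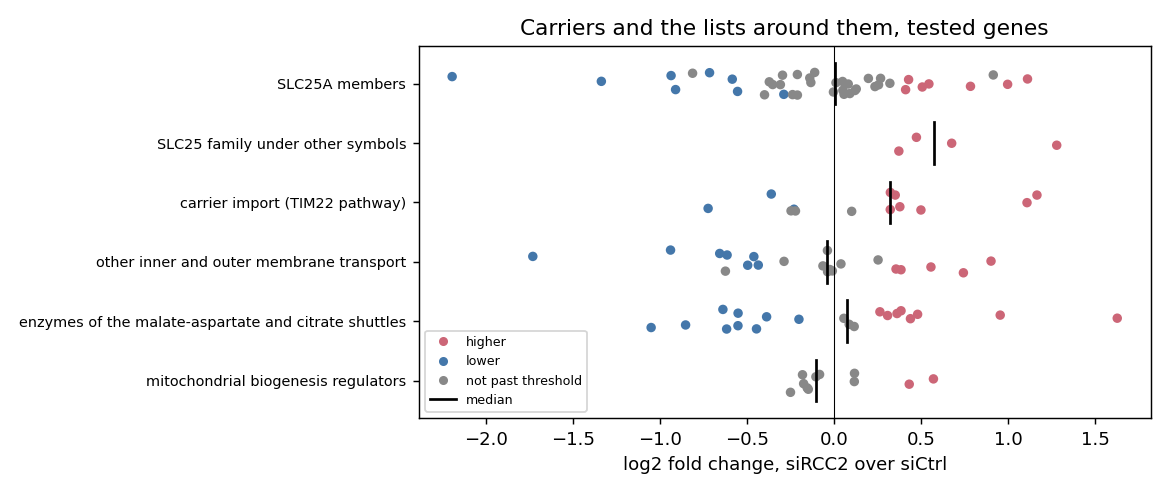
Log2 fold changes of tested genes in the carriers and in 5 lists around them; each point is a gene, red higher, blue lower and grey not past the threshold, with the median as a bar and a random vertical offset. The medians lie at 0.00 for the carriers, 0.57 for the family under other symbols (4 tested genes) and 0.32 for carrier import. They lie at -0.04 for other transport, 0.07 for the shuttle enzymes and -0.10 for the biogenesis regulators.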

How the data were processed

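Bowtie2, RSEM, DESeq2 and the build GRCh38 are named per the submitters' processing notes. Their versions, the strand, the read length and how ribosomal RNA was removed: not given in the sources used here. The authors deposited whole-number counts per gene, 1 table per library, which may be rounded RSEM estimates; RSEM shares reads among like sequences. Counts were tested with edgeR 4.0.16 in R 4.3.3 (filterByExpr, TMM, quasi-likelihood F-test, Benjamini-Hochberg, threshold 0.05), after a test on simulated data. Standard errors were taken as the size of the log2 fold change over the square root of F. Levels per kilobase use the GENCODE 29 principal transcript. The members and lists were chosen with earlier results of these data known. Named are RCC2, the members (1 tested member is counted but not reported here), and up to 4 genes of each list with the smallest p. Outside that rule are PPARGC1A, LRIG1, RANGRF, RNF167, SLC25A25-AS1, AC012213.5, AC139530.2 and the cell type markers, named as checks after their values were seen. Alternatives were 3 scalings, DESeq2 1.42.0, limma-voom (limma 3.58.1), 2 filters, the replicate number as a block and leaving out each library. Replicates of a group differed by more than sampling noise, so none was merged; the biological coefficient of variation was 16.6%. At these depths members under 1 CPM rest on few reads. Figures used Python 3.11.15 and matplotlib 3.10.9.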

Additional observations from a re-analysis of the deposited data

How the results depend on the processing

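Of the 15 carriers past the threshold, 10 kept their call in all 15 alternatives. The number called ran from 12 to 19 when each library was left out in turn. Same-numbered libraries of the groups did not deviate together (correlations 0.06, -0.04 and 0.10), so the numbers were not treated as pairs; with the replicate block edgeR called 17 carriers and DESeq2 14, against 15. Signs near 0 turned for carriers not past the threshold. With total count alone, the log2 fold change was -0.022 for SLC25A12, -0.017 for SLC25A40, -0.058 for SLC25A45 and -0.012 for SLC25A5. SLC25A45 stood at -0.022 with no filter and -0.011 with upper-quartile scaling, and SLC25A53 at 0.0034 with DESeq2 and 0.0070 with its size factors in edgeR. Leaving out 1 library, SLC25A12 ran from -0.048 to 0.16, SLC25A14 from -0.18 to 0.016, SLC25A32 from -0.023 to 0.21, SLC25A40 from -0.0036 to 0.14, SLC25A45 from -0.066 to 0.15 and SLC25A53 from -0.43 to 0.20. Carrier import genes called higher were 3 with DESeq2 and the replicate block and 4 with no filter, and 2 to 6 leaving out 1 library, and called lower 2 to 5. Other transport genes called higher were 3 with total count alone and 3 to 4 leaving out 1 library, and called lower 4 to 7. Biogenesis genes called higher were 1 to 2 and lower 0 to 1, and family members under other symbols 2 to 4. With total count alone the summed level changed by -0.41 for ADP/ATP carriers, against -0.34 with TMM. The change was -0.24 for all 48 members (-0.17 with TMM) and 0.17 for cofactor carriers (0.23 with TMM). The cause of these moves was not tested.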
